A study of Mus with 2 samples.

Results

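The Arg1-high spots were the 241 spots of the rIL7 tumor section that held 3 or more unique molecular identifiers (UMIs, each standing for 1 captured transcript) of Arg1. They made up 12.4% of the 1950 spots of that section with more than 200 genes (exact binomial 95% interval 10.9 to 13.9%), and the series held 4169 such spots in all. The spots were selected on their own Arg1 counts, so Arg1 is given as a description and supports nothing. All other genes were compared with the 941 spots of the same section in which no Arg1 UMI was found (48.3%), and the 768 spots with 1 or 2 UMIs (39.4%) stood between these groups. Because spots were picked on a captured count, a spot of greater depth reached 3 UMIs more easily: the median spot held 17010 UMIs in the Arg1-high group and 11412 in the group with 0.

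Both sections came from CT26 tumors, grown from a transplantable mouse colon carcinoma line in female balb/c mice of 6 to 8 weeks. The rIL7 tumor was taken at day 15 after transplantation from a mouse given 10 µg of recombinant mouse IL7 by intraperitoneal injection on days 11 and 13, and the control tumor came from a mouse given PBS. Each is 1 frozen section of 10 µm on a Visium array, whose printed spots each collect RNA from a patch of tissue wider than a cell, so 1 spot may mix cell types. The rIL7 section held 25729233 UMIs in its kept spots (median 12921.5 UMIs and 4664 genes per spot), and the control section 22951678 (median 9623 and 3969). With 1 section per group no p-value is given. The intervals are 95% and cover counting error only. The range over 4 quadrants of the section (cut at its median row and column) gives the spread within this tumor, and quadrants are not replicates.

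Arginase 1, the product of Arg1, splits arginine into ornithine and urea. In tumors it is known mainly from macrophages, neutrophils and other myeloid cells, where it competes for arginine with inducible nitric oxide synthase and lowers the arginine that T cells need to divide. Its transcription in macrophages is known to respond to interleukins 4 and 13, to lactate and to low oxygen. In bulk areas such as these spots, fewer cells of a type and less RNA per cell cannot be told apart.

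Arg1 lies on chromosome 10 (GRCm38.p6, 24915207-24927470). The section held 2204 Arg1 UMIs, of which 1198 lay in the Arg1-high spots, at 287 CPM (UMIs of the gene per 1000000 UMIs of all genes in the same spots). A single spot held at most 25. Of the Arg1-high spots, 154 held 3 to 4 UMIs, 67 held 5 to 9 and 20 held 10 or more. The 103 spots just inside the threshold, with exactly 3 UMIs, had an Arg1 level of 192 CPM and a median depth of 15063 UMIs, and the 238 spots just outside it, with 2 UMIs, had 139 CPM and 13811 UMIs. These neighbouring classes were also close in Mmp12, at 213 and 197 CPM, and in Ndrg1, at 395 and 331 CPM. Hmox1, at 122 and 82.8 CPM, and Igkc, at 27.3 and 46.2 CPM, differed more. The threshold cut a continuous range of Arg1 counts.

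Most Arg1-high spots lay deep inside the tumor. Depth into the tissue was counted in grid steps from the outer outline of the main piece of tissue, with 1 for a spot that touched it. The median Arg1-high spot was at 12 steps (quartiles 8 to 16, 240 spots in the main piece) and the median spot with 0 Arg1 UMIs at 5 steps (quartiles 3 to 9, 925 spots). At 13 or more steps 116 of 419 spots were Arg1-high (27.7%, 23.5 to 32.2%), and at 3 to 8 steps 41 of 790 (5.19%). The outermost 2 steps held a small second group of 26 of 330 spots (7.88%), so the lowest share was not at the rim but a few steps inside it, at step 4 (5 of 142 spots, 3.52%, 1.15 to 8.03%). Sequencing depth increased inward as well, and the part of depth in the shares was not tested. The Arg1 level itself, which is divided by total UMIs, went from 54.6 CPM at 3 to 8 steps to 140 CPM at 13 or more steps, and equally many spots ranked by Arg1 CPM in place of UMIs had a median of 11 steps.

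**Figure D1:**
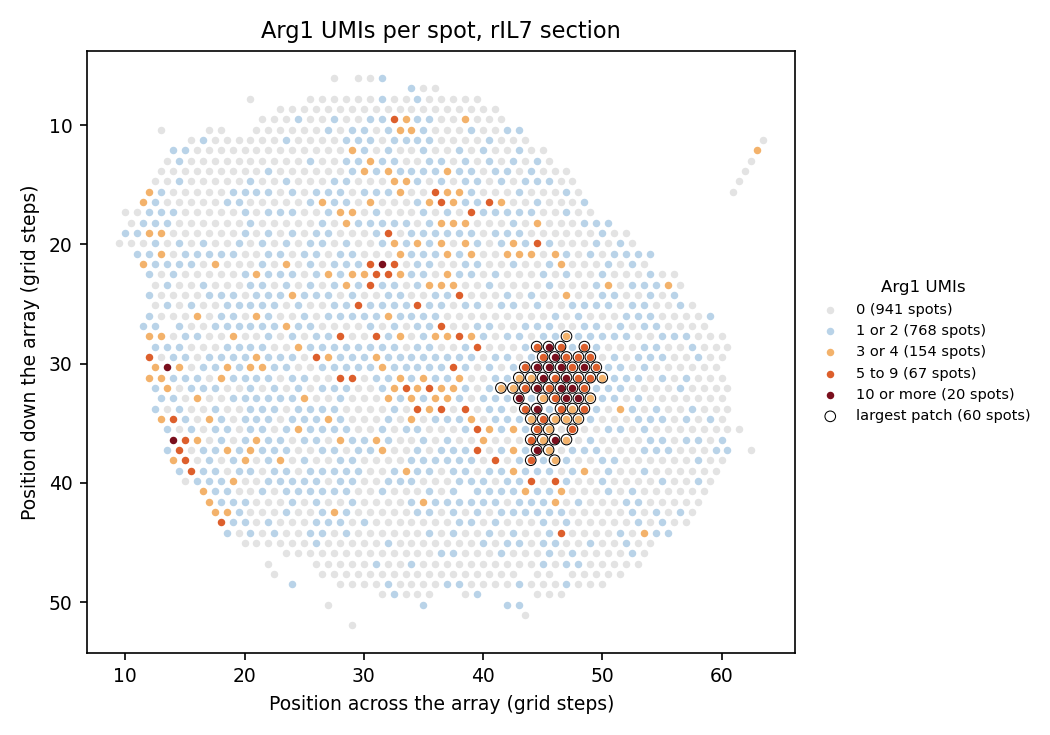
Map of the rIL7 section, with each spot at its position across (x axis) and down (y axis) the array in grid steps, colored by its Arg1 UMIs, and the spots of the largest patch circled in black. The 241 Arg1-high spots form the circled patch of 60 in the interior at the right, smaller groups in the middle and short stretches along the left rim.

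**Figure D2:**
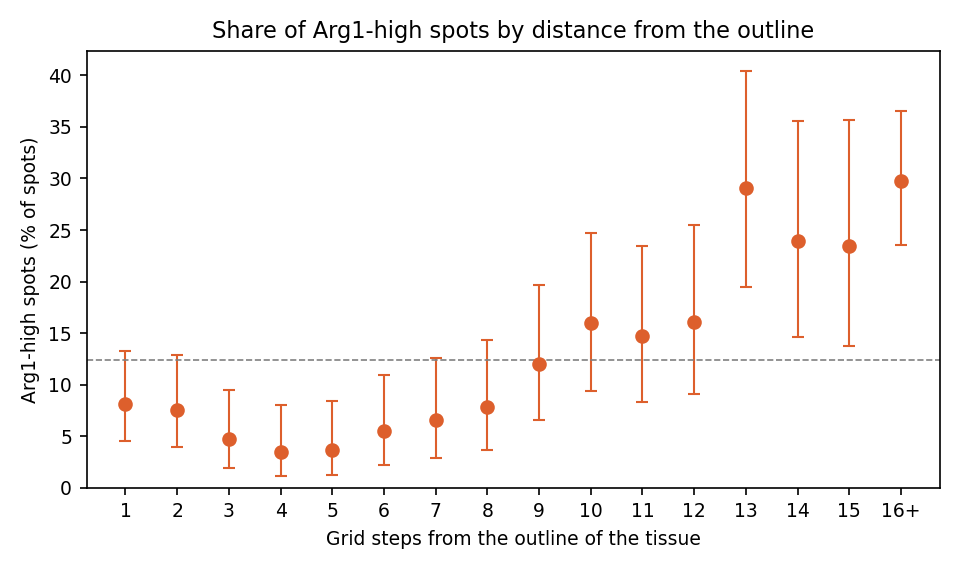
Share of spots that were Arg1-high, in percent (y axis), by distance from the outline of the tissue in grid steps (x axis), with exact binomial 95% intervals and a dashed line at the share over the whole section. The share was 8.14% at step 1, 3.52% at step 4 and 29.8% at 16 or more steps.

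Arg1-high spots lay next to each other. Of the 1413 adjacent tissue positions of Arg1-high spots, 528 were Arg1-high too (37.4%), against 12.4% of all spots of the section and 5.78% of the positions next to spots with 0. Because pairs are counted from both sides and neighbours can share diffused RNA, this share is a description. It was above the share of all spots in each band of distance, with 48.4% against 27.7% at 13 or more steps, 33.8% against 14.6% at 9 to 12, 12.2% against 5.19% at 3 to 8 and 41.1% against 7.88% at 1 to 2 steps. Joining adjacent spots gave 82 patches, of which 49 were a single spot and 11 held 5 or more spots. Those 11 patches held 138 of the 241 spots (57.3%). The largest patch had 60 spots at 10 to 17 steps from the outline and an Arg1 level of 362 CPM. The next patches had 18 and 13 spots.

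Across the transcriptome, few genes differed in size between the groups, and more were lower than higher. A gene was counted as higher at a CPM ratio of at least 1.5 with its interval above 1, or as lower at the inverse of that ratio with its interval below 1, and the rule was applied to the 9425 genes whose mean over both groups reached 10 CPM. By this rule 154 genes were higher (1.63%) and 308 lower (3.27%). Of these, 133 and 252 lay on the same side in 4 of 4 quadrants. The split depended on scaling: with TMM factors, which moved the median gene by 0.09 on the log2 scale, 219 genes were higher and 205 lower. The median log2 ratio over all tested genes was -0.08. When the spots with 0 were weighted to the same distances from the outline, 97 of the 154 higher and 121 of the 308 lower genes were still past the rule, and when weighted to the same depths, 124 and 136 were. A separate reading by quadrant set no limit on size or interval and so took in more genes. All 4 quadrant values of the Arg1-high spots lay above all 4 of the other group for 291 genes (3.09%). They lay below all 4 for 728 genes (7.72%). Counts of list genes given below, past the rule or with quadrant values apart, are to be read beside the shares in this paragraph.

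The highest ratio among the named genes belonged to Hmox1, which encodes heme oxygenase 1, the enzyme that breaks heme into biliverdin, carbon monoxide and iron. Hmox1 (chromosome 8, 75093618-75100593) stood at 385 CPM in the Arg1-high spots and 37.1 CPM in spots with 0, a ratio of 10.4 (9.31 to 11.6). Over the quadrants it was 118, 393, 103 and 690 CPM in Arg1-high spots and 33.8, 55.7, 30.7 and 24.6 CPM in the others, so every quadrant differed in the same direction but by very different amounts. Hmox1 was found in 154 of 241 Arg1-high spots (63.9%) and in 270 of 941 spots with 0 (28.7%). The ratio was 8.50 with spots matched for distance and 7.94 with spots matched for depth.

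Genes around heme and iron differed with it, on a list put together after the values were seen. Of its 14 tested genes 6 were higher (against 1.63% of all genes) and none lower, with a list median of 0.44 on the log2 scale. Slc40a1, which encodes the iron exporter ferroportin, had 23.7 against 3.16 CPM, a ratio of 7.5 (5.05 to 11.4), but was not higher in every quadrant. Ftl1, the light chain of the iron store ferritin, had a ratio of 1.63 (1.59 to 1.66), the heme transporter gene Slc48a1 had 1.84 (1.62 to 2.09), and Cd163, the macrophage receptor for hemoglobin bound to haptoglobin, had 1.88 (1.48 to 2.38). Tfrc, the transferrin receptor that brings iron in, had 0.94 (0.78 to 1.11), and Blvra, a biliverdin reductase, 0.88 (0.72 to 1.06). Hemoglobin and the other red blood cell genes were near 0 in both groups, with 16 UMIs in Arg1-high spots and 29 in spots with 0. A second list added after seeing the values, of NRF2 targets and metallothioneins, had 6 of 8 tested genes higher and none lower (median log2 ratio 0.79), among them the metal-binding Mt1 at 3256 against 1302 CPM.

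Transcripts known to respond to low oxygen were the list with the largest share of genes past the size rule in the higher direction, among the lists compared. Of 17 tested hypoxia genes 14 were higher and none lower, against 1.63% of all genes, and the same number, 14, had all their quadrant values apart. The list summed to 3088 CPM against 1482 CPM, a ratio of 2.08 (2.04 to 2.13), with a median log2 ratio of 1.04. Its quadrant sums ran from 2788 to 3385 CPM in Arg1-high spots and from 953 to 1859 CPM in spots with 0, so the ranges did not overlap. The ratio was 1.74 after matching for distance. By band it was 3.08 at 1 to 2 steps, 2.30 at 3 to 8, 1.68 at 9 to 12 and 1.51 at 13 or more, so the few Arg1-high spots of the rim differed most from spots with 0 at the same distance.

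Within this list Ndrg1, a gene commonly read as a sign of low oxygen (chromosome 15, 66929318-66969641), had 457 against 164 CPM, a ratio of 2.78 (2.61 to 2.97). Its quadrant values were 508, 453, 580 and 364 CPM in Arg1-high spots and 206, 185, 187 and 82.6 CPM in spots with 0, which did not overlap. The lipid droplet gene Hilpda had a ratio of 2.71 (2.40 to 3.05), P4ha2, a subunit of the collagen prolyl hydroxylase, 2.70 (2.28 to 3.20), and Ero1l, an oxidase of the endoplasmic reticulum, 2.68 (2.48 to 2.90). Bnip3, a receptor for the removal of mitochondria, had 2.41, the glucose transporter gene Slc2a1 2.20 and Vegfa, the main growth factor of blood vessels, 1.71 (1.52 to 1.91). P4ha1, Kdm3a and Angptl4 stayed below the size rule, at ratios of 1.31, 1.25 and 1.31.

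Glycolysis genes differed in the same direction by less. Of 15 tested genes 10 were higher and none lower, and 14 had their quadrant values apart. The list summed to 16352 against 10865 CPM, a ratio of 1.51 (1.49 to 1.52), or 1.38 with distances matched. Pgk1 had a ratio of 1.77 (1.71 to 1.83), Ldha, which makes lactate, 1.55 (1.51 to 1.59), and Slc16a3, which exports it, 1.93 (1.62 to 2.30). Gbe1, the branching enzyme of glycogen synthesis, was among the highest named genes with 27.1 against 9.13 CPM, a ratio of 2.97 (2.25 to 3.92).

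**Figure D3:**
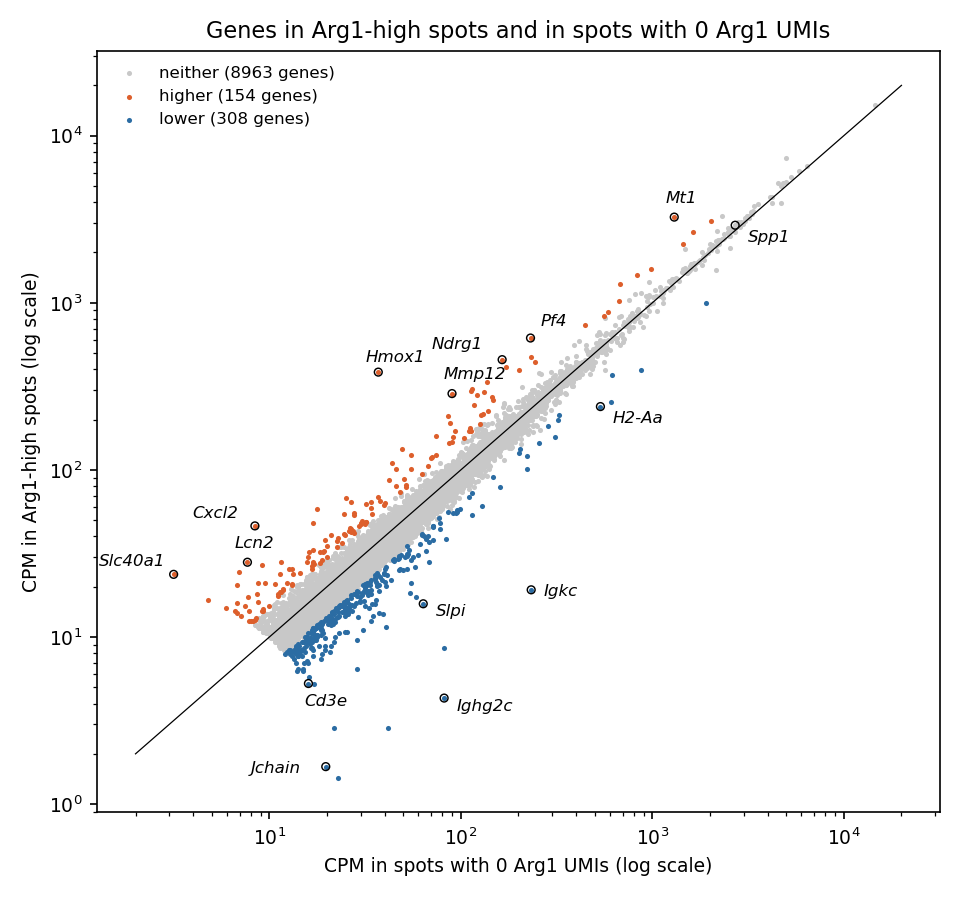
CPM of each tested gene in spots with 0 Arg1 UMIs (x axis) and in Arg1-high spots (y axis), both on log scales, with the 154 higher genes in orange, the 308 lower genes in blue, the line of equal levels and some named genes circled. Hmox1, at 385 against 37.1 CPM, lies farthest above the line among the circled genes, and Igkc, Ighg2c and Jchain lie far below it.

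Macrophage transcripts as a whole were at about the same level in both groups. The core macrophage list summed to 5189 against 5279 CPM, a ratio of 0.98 (0.97 to 1.0) that turned to the other side of 1 with TMM scaling, at 0.07 on the log2 scale. Of 13 tested genes only Pf4 was higher and none was lower. C1qa, a complement gene typical of tissue macrophages, had 0.82 (0.79 to 0.86), Csf1r, the receptor that macrophages depend on, 0.74 (0.67 to 0.81), and Cd68 1.18 (1.08 to 1.28). With distances matched its ratio was 1.14, and within bands it was 0.56 at 1 to 2 steps, 0.86 at 3 to 8, 1.33 at 9 to 12 and 1.48 at 13 or more. Its direction thus turned from the rim to the center. Pf4, a platelet chemokine that is also made by macrophages (chromosome 5, 90772435-90773383), had 615 against 231 CPM, a ratio of 2.66 (2.52 to 2.81). Its values by quadrant were 317, 514, 296 and 1017 CPM in Arg1-high spots and 183, 218, 240 and 289 CPM in the others, which did not overlap. By band the ratio of Pf4 was 1.04 (0.90 to 1.21) at 1 to 2 steps and 1.02 (0.82 to 1.25) at 3 to 8. It was 3.35 (2.95 to 3.83) at 9 to 12 and 4.07 (3.61 to 4.60) at 13 or more.

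The list of alternatively activated macrophage genes, the program with which Arg1 is usually grouped, differed little. It summed to a ratio of 1.1 (1.07 to 1.13), and of 10 tested genes only Cd163 and F13a1, a subunit of clotting factor XIII, were higher, F13a1 at 2.83 (2.31 to 3.48). The mannose receptor gene Mrc1 had 1.30 (1.19 to 1.43). Chil3 was found as 1 UMI in each group and Retnla as 7 and 10 UMIs, so these mouse markers were too rare to compare. Spp1, which marks a common class of tumor macrophage and is also made by tumor cells, had 2911 against 2708 CPM, a ratio of 1.08 (1.05 to 1.1). Of the Spp1 and lipid-handling list, 4 of 14 tested genes were higher and 1 lower. Besides Hmox1 and Mmp12 these were Fabp5, a fatty acid carrier, at 2.62, and Plin2, the coat of lipid droplets, at 1.84.

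Genes that make or use arginine stayed below the size rule, apart from Nos2. Of 11 tested genes of arginine and polyamine metabolism only Nos2 was higher and none was lower, and the list had a median log2 ratio of 0.02. Nos2, the inducible nitric oxide synthase, stood at 16.8 against 4.79 CPM, a ratio of 3.50 (2.42 to 5.10). Arg2, the mitochondrial arginase, had 62 and 117 UMIs, a ratio of 1.40 (1.02 to 1.93) that did not reach 1.5. Odc1, which turns ornithine into polyamines, had 1.25 (1.19 to 1.30), and Ass1, which rebuilds arginine, 0.78 (0.60 to 1.0). Of 12 tested genes of the amino acid stress response 2 were higher, namely the stress factor gene Atf3 at 3.51 (2.59 to 4.78) and the cystine transporter gene Slc7a11 at 2.04 (1.45 to 2.87). Asns, the asparagine synthetase that is a standard target of that response, was at 1.04 (0.89 to 1.22).

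Neutrophil-associated transcripts were higher, although the receptor gene Csf3r was not. Of 10 tested genes of the neutrophil list 6 were higher and none lower, and the sum was 751 against 411 CPM, a ratio of 1.83 (1.74 to 1.91) and of 1.78 with distances matched. Cxcl2, a chemokine that draws neutrophils and is also made by macrophages, had 46.2 against 8.41 CPM, a ratio of 5.50 (4.27 to 7.12). S100a8 and S100a9, the chains of calprotectin, had 2.51 (2.21 to 2.86) and 2.32 (2.15 to 2.52), and G0s2, an inhibitor of lipid breakdown that neutrophils express strongly, 3.0 (2.18 to 4.15). Csf3r, the receptor for granulocyte growth factor, had 0.90 (0.70 to 1.16), and the defining marker Ly6g was at 0 in both groups. Lcn2, an iron-withholding protein of neutrophils and stressed epithelium, had 28.0 against 7.68 CPM, a ratio of 3.65 (2.74 to 4.88). The quadrant ranges of this list overlapped, from 467 to 953 CPM in Arg1-high spots and from 273 to 575 CPM in spots with 0. Outside the largest patch, the ratio of Arg1-high spots to spots with 0 was 1.29 (1.22 to 1.37) for the list. It was 2.20 (1.54 to 3.12) for Cxcl2, 1.59 (1.04 to 2.38) for Lcn2 and 1.44 (0.90 to 2.25) for G0s2. The intervals of Cxcl2, Lcn2 and G0s2 included 1 at 1 to 2 and at 3 to 8 steps, and lay above 1 in both deeper bands.

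Other chemokines were mixed. Of 13 tested genes of myeloid recruitment 3 were higher and 2 lower: Ccl6 had a ratio of 2.47 (2.29 to 2.65), and Cxcl1 and Cxcl5 each 1.97. With distances matched Cxcl1 and Cxcl5 were at 1.17 and 1.27. Cxcl12, which holds lymphocytes and stem cells in place, was lower at 0.33 (0.23 to 0.46). In the pro-inflammatory list 2 of 8 tested genes were higher (Nos2 and Ptgs2) and 2 lower (Cxcl9 and Cxcl10, both induced by interferon), and Il1b had 1.37 (1.26 to 1.48). Both lists turned with position. The pro-inflammatory list was at 0.50 (0.46 to 0.55) at 1 to 2 steps, 0.82 at 3 to 8, 1.68 at 9 to 12 and 1.73 (1.62 to 1.86) at 13 or more. The chemokine list was at 0.79 (0.75 to 0.83), 1.06, 1.38 and 1.25 (1.21 to 1.30) in the same bands.

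Mmp12 was higher in every quadrant and in each band of distance. It encodes macrophage elastase, which cuts elastin and is made by macrophages. Mmp12 had 286 against 89.9 CPM, a ratio of 3.18 (2.92 to 3.47), with 379, 269, 220 and 274 CPM by quadrant in Arg1-high spots and 135, 74.1, 99.8 and 53.4 CPM in spots with 0. These values did not overlap, and the ratio lay between 2.05 and 3.60 in the 4 bands of distance. Of 14 tested genes of matrix-degrading proteases and their regulators 5 were higher and none lower, among them the collagenase gene Mmp13 at 2.19. Hspa1a, a heat shock protein gene that also responds to handling of tissue, had 58.5 against 17.7 CPM, a ratio of 3.30 (2.72 to 4.0). The direction of Hspa1a turned with position, from 0.39 (0.20 to 0.71) at 1 to 2 steps to 13.2 (7.39 to 26) at 13 or more.

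**Figure D4:**
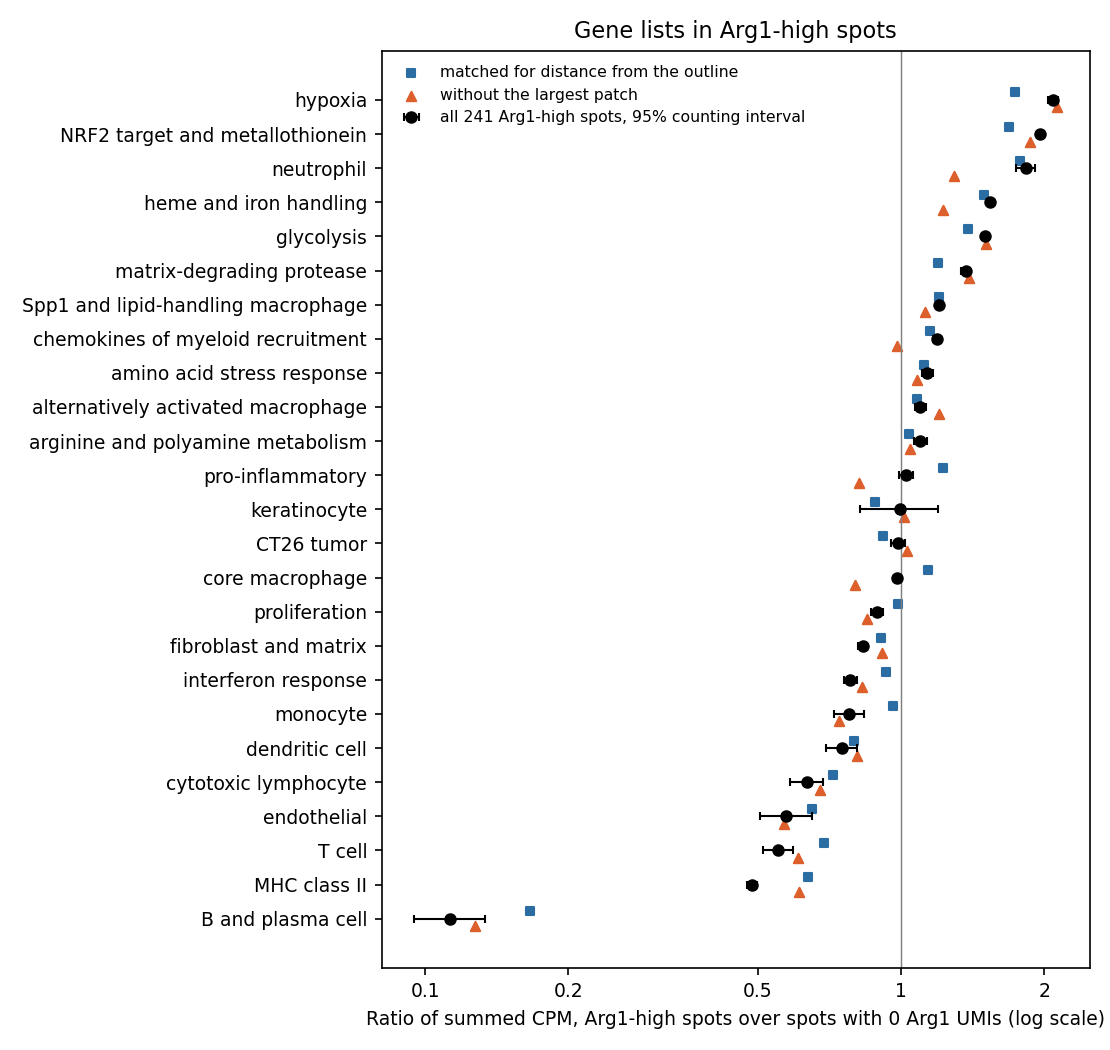
Ratio of the summed CPM of each gene list, Arg1-high spots over spots with 0 Arg1 UMIs (x axis, log scale), for all 241 spots with 95% counting intervals (black circles), with distances from the outline matched (blue squares) and without the largest patch (orange triangles). Hypoxia lies highest at 2.08 (1.74 matched) and B and plasma cell genes lowest at 0.11, and the core macrophage list changes side between the settings.

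Transcripts of antigen presentation and of lymphocytes were lower in Arg1-high spots. All 7 genes of MHC class II, the complex that shows peptides to CD4+ T cells, were lower (against 3.27% of all genes), and their sum was 2021 against 4160 CPM, a ratio of 0.49 (0.47 to 0.50). H2-Aa had 239 against 536 CPM, a ratio of 0.45 (0.42 to 0.48), H2-Eb1 0.42 (0.39 to 0.45), and Ciita, the master activator of the group, 0.42 (0.29 to 0.60). Quadrant values were apart in 5 of the 7 genes. With distances matched the list was at 0.64, and by band it was at 0.35 within 2 steps of the outline, then 0.71, 0.84 and 0.85. The difference was thus greatest within 2 steps of the outline.

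T cell genes followed the same course. Of 8 tested genes 7 were lower and none higher, with a sum of 216 against 391 CPM, a ratio of 0.55 (0.51 to 0.59), or 0.69 with distances matched. Cd3e, a chain of the T cell receptor complex, had 5.27 against 16 CPM, a ratio of 0.33 (0.20 to 0.51), the receptor chain gene Trac 0.35 (0.26 to 0.46), and Tnfrsf4, which encodes the costimulator OX40, 0.31 (0.19 to 0.48). By band the T cell list was at 0.44 (0.38 to 0.51) at 1 to 2 steps, then 0.80, 0.74 and 0.84 (0.73 to 0.97). At 13 or more steps Cd3e was at 0.69 (0.29 to 1.60), Trac at 1.07 (0.58 to 1.98) and Tnfrsf4 at 0.34 (0.13 to 0.81). Of 6 tested cytotoxic lymphocyte genes 4 were lower, with Prf1, the pore-forming perforin, at 0.66 and the natural killer receptor gene Ncr1 at 0.43. Gzmb, a granzyme, had 0.80 (0.66 to 0.98) and did not reach the rule. Ubd, an inflammation-induced ubiquitin-like gene, was at 0.34 (0.26 to 0.43), and the interferon response list had a ratio of 0.78 (0.76 to 0.81). The direction of that list turned with position, from 0.57 (0.53 to 0.62) at 1 to 2 steps to 1.11 (1.05 to 1.18) at 13 or more, and it was at 0.93 with distances matched.

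The lowest ratios belonged to immunoglobulin genes, and they depended on position. Igkc, the constant part of the kappa light chain, had 19.2 against 233 CPM, a ratio of 0.08 (0.06 to 0.10). Ighg2c (0.05), Ighg1 (0.07), Jchain (0.09), Ighg2b (0.11) and Ighm (0.28) were lower too. Of these, Ighg2c, Ighg1 and Ighg2b share similar sequences, so reads may be assigned among those genes uncertainly. Igkc had 1049 CPM in spots with 0 Arg1 UMIs at 1 to 2 steps, and its ratio was 0.02 (0.01 to 0.03) there but 1.88, 1.23 and 0.77 in the 3 deeper bands. Over spots more than 2 steps from the outline its ratio was 0.84, and Ighg2c, Ighg1 and Jchain were at 0.76, 0.82 and 0.92, so these 4 did not reach the size limit over inner spots. Ighg2b and Ighm were still at 0.53 and 0.57 there. Within the 3 deeper bands the ratio of Ighg2b was 1.52, 0.69 and 0.80 and that of Ighm 0.79, 1.19 and 1.04, with each interval including 1. Slpi, an inhibitor of neutrophil elastase, had 0.25 (0.19 to 0.32) overall but 1.48 over those inner spots. The phospholipase gene Pla2g2d (0.13, 0.24 inside) and Dnase1l3, a nuclease gene of macrophages and dendritic cells (0.30, 0.44 inside), were lower in both, and Gm15056 had 0.23 and 0.68.

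Stromal and vessel transcripts were lower to a smaller extent than the immunoglobulin genes. Of 12 tested fibroblast and matrix genes 5 were lower and none higher, with a list ratio of 0.83 (0.81 to 0.85): the collagen gene Col3a1 had 0.60 and the contractile gene Acta2 0.58, while Dcn, the matrix proteoglycan decorin, had 1.30 (1.23 to 1.38). At 1 to 2 steps the list was on the other side of 1, at 1.08 (1.03 to 1.13), against 0.85 (0.81 to 0.88) at 13 or more. Of 3 tested endothelial genes Eng and Plvap were lower and the list ratio was 0.57 (0.51 to 0.65). The endothelial difference was greatest at 1 to 2 steps, at 0.26 (0.18 to 0.36). In the 3 deeper bands that list was at 0.81, 0.84 and 0.85, with each interval including 1. Over spots more than 2 steps from the outline it was at 0.83 (0.72 to 0.95). Monocyte genes had 3 of 7 tested lower, among them Ly6c2 at 0.38 and the chemokine receptor gene Ccr2 at 0.64. The monocyte list also turned with position, from 0.50 (0.41 to 0.60) at 1 to 2 steps to 1.31 (1.1 to 1.54) at 9 to 12 and 1.19 (1.03 to 1.38) at 13 or more, and was at 0.96 with distances matched. Of 3 tested dendritic cell genes Itgax was lower. Many defining genes of dendritic and B cells, such as Xcr1, Clec9a and Ms4a1, had almost no UMIs in either group.

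Tumor cell and division markers differed little between the groups. Rpl39l and Baiap2l1, which the study uses as markers of CT26 cells, had ratios of 1.06 (1.0 to 1.12) and 0.94 (0.90 to 0.99; with TMM scaling Baiap2l1 was level, at 0.0044 on the log2 scale), and none of 12 tested proliferation genes was higher or lower, with a list ratio of 0.89 (0.86 to 0.92). Quadrant sums of the proliferation list did not overlap, from 1306 to 1408 CPM in Arg1-high spots and from 1502 to 1545 CPM in spots with 0. With distances matched its ratio was 0.98 (0.95 to 1.02). The epithelial genes Krt8 and Cldn4 were at 0. Lists of skeletal muscle, keratinocyte and fat genes were each under 40 CPM in sum in both groups, with no muscle or fat gene at 10 CPM. Il7 itself had 1 UMI in Arg1-high spots and 19 in spots with 0, a ratio of 0.14 (0.00 to 0.88), and its receptor gene Il7r, with 19 and 65 UMIs, was at 0.77 (0.44 to 1.31).

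The Arg1-high spots were not of 1 kind. The largest patch, 60 adjacent spots of which 50 lay in a single quadrant, carried most of the difference in Hmox1, Slc40a1 and Pf4, whereas hypoxia genes and Mmp12 differed as much in the other 181 Arg1-high spots. This split was made after the values were seen. Hmox1 had 987 CPM in the patch and 109 CPM in the other Arg1-high spots, a ratio of 9.03 (7.98 to 10.3), and the other Arg1-high spots still exceeded the spots with 0 by 2.95 (2.54 to 3.42). At least 1 Hmox1 UMI was found in 59 of the 60 patch spots (median 13.5 UMIs per spot) and in 95 of the 181 others (median 1). The median depth was 21132 and 15505 UMIs.

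Slc40a1 had 65.7 CPM in the patch, 4.54 in the other Arg1-high spots and 3.16 in spots with 0, and outside the patch its ratio to spots with 0 was 1.43 (0.70 to 2.78), not distinguishable from 1 at this depth. Pf4 had 1381, 265 and 231 CPM in the same order. Cxcl2 had 107, 18.5 and 8.41 CPM, and Fabp5 618, 150 and 114 CPM. These genes were thus several times higher in the patch than in the Arg1-high spots elsewhere.

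A second set of genes was level between the patch and the other Arg1-high spots. Mmp12 had 293 and 283 CPM, a ratio of 1.04, against 89.9 in spots with 0. The hypoxia list had 2948 and 3152 CPM against 1482, and the glycolysis list 16292 and 16379 CPM against 10865. Ero1l and Mt1 behaved likewise, with 301 and 309 CPM and with 3207 and 3279 CPM. Ndrg1 was somewhat lower in the patch, at 392 against 486 CPM.

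Myeloid lists separated the patch in both directions. The core macrophage list had 7285 CPM in the patch, 4231 in the other Arg1-high spots and 5279 in spots with 0. These groups were not matched for distance: their median was 13, 10 and 5 steps from the outline. By band, spots with 0 had 8537 CPM for this list at 1 to 2 steps and 4854 at 3 to 8. They had 3934 CPM at 9 to 12 and 3730 at 13 or more, both below the 4231 CPM of the other Arg1-high spots. The neutrophil list had 1234, 531 and 411 CPM. MHC class II had 897, 2534 and 4160 CPM, and Spp1 1877, 3384 and 2708 CPM. Spots with 0 had MHC class II at 1975 CPM at 9 to 12 steps and 2034 CPM at 13 or more. Among these pooled groups the core macrophage list was highest in the patch, though below the 8537 CPM of spots with 0 at 1 to 2 steps. MHC class II transcripts in the patch were at 0.35 of their level in the other Arg1-high spots. Pf4, a member of the core macrophage list, alone had 1381, 265 and 231 CPM in the same order. It therefore made up part of the difference in that list, and the list without Pf4 was not computed. Ccl5, a chemokine of T cells and activated macrophages, had 837, 168 and 255 CPM, while the T cell list was at 169, 238 and 391 CPM. Spots with 0 had the T cell list at 234 CPM at 9 to 12 steps and 224 CPM at 13 or more.

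The smaller patches differed as well. The second patch, of 18 spots, was at 24.9 CPM for Hmox1 and 203 CPM for Pf4, near the values of spots with 0, and the third, of 13 spots, had Mmp12 at 898 CPM. A patch of 7 spots at 1 to 3 steps from the outline had Ndrg1 at 1247 CPM and a hypoxia list sum of 5564 CPM, with Hmox1 at 340 CPM. High Hmox1 was thus not seen in every patch.

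**Figure D5:**
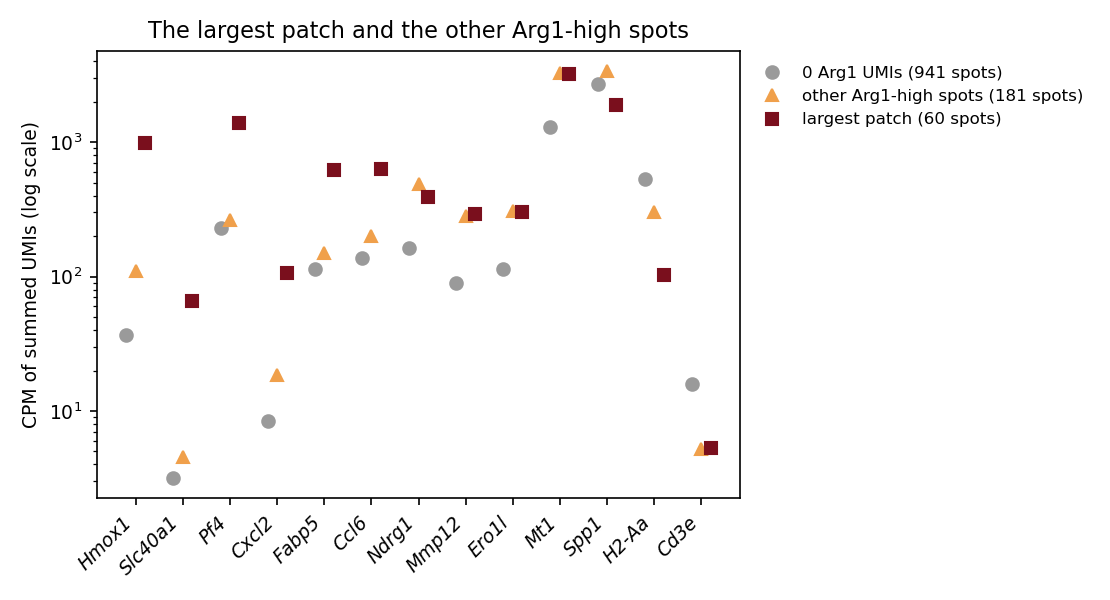
CPM of 13 genes (y axis, log scale) in the 941 spots with 0 Arg1 UMIs (gray circles), the other 181 Arg1-high spots (orange triangles) and the 60 spots of the largest patch (red squares). Hmox1 stood at 37.1, 109 and 987 CPM in that order, while Mmp12 stood at 89.9, 283 and 293 CPM.

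Levels were also sorted by Arg1 count, the value that chose the spots. Some of the spots with 10 or more Arg1 UMIs belonged to the largest patch. These levels are therefore a description and no separate support for the patch split. In the 20 spots with 10 or more Arg1 UMIs, at a median of 13 steps and 21602 UMIs, Hmox1 was at 1578 CPM, Pf4 at 1966 CPM and Slc40a1 at 92.8 CPM. The hypoxia list there was at 4169 CPM and the core macrophage list at 8476 CPM, both above the values over all Arg1-high spots. H2-Aa was at 102 CPM and Spp1 at 1977 CPM.

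Spots that were not selected also differed by how near they lay to an Arg1-high spot. Among spots with 0 Arg1 UMIs, Mmp12 had 150 CPM at 1 step from the nearest Arg1-high spot, then 94.2, 72.6 and 59.0 CPM at 2, 3 and 4 steps and 39.1 CPM at 5 or more. Ndrg1 had 255, 179, 131, 98.1 and 93.6 CPM, and H2-Aa 280, 316, 429, 623 and 1134 CPM. The distance from the outline changed along this order too, with a median of 10 steps at 1 step and 2 steps at 5 or more over all spots below 3 Arg1 UMIs.

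When only spots with 0 Arg1 UMIs at 9 or more steps from the outline were taken (127, 93 and 33 spots at 1, 2 and 3 steps), Mmp12 still stood at 172 (154 to 192), 104 (86.5 to 124) and 68.1 CPM (45.3 to 98.5). The hypoxia list was at 2040, 1778 and 1446 CPM. H2-Aa, at 239, 214 and 202 CPM, no longer increased with distance from Arg1-high spots, and the T cell list was at 215, 249 and 246 CPM with overlapping intervals. Hmox1 had 58.7, 45.7 and 53.5 CPM with overlapping intervals.

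Ranking all spots by another readout gave partly the same places. Taking for each gene or list the 241 spots with its highest CPM, 92 (38.2% of each list of spots) were Arg1-high for Hmox1, 85 (35.3%) for the hypoxia list, 78 (32.4%) for Mmp12 and 65 (27.0%) for the neutrophil list, beside the 12.4% that Arg1-high spots made up of the section. For the core macrophage list the share was 12%, for the CT26 markers 7.88%, for the T cell list 2.49% and for MHC class II 1.24%. Most spots with the highest levels of any of these transcripts were therefore not Arg1-high. Among the 809 spots at 9 or more steps, of which 173 were Arg1-high (21.4%), the shares were 45.1% for Hmox1, 40.5% for hypoxia, 39.9% for the core macrophage list and 14.5% for MHC class II.

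In the control section Arg1 was rare, with 285 UMIs (12.4 CPM) against 2204 (85.7 CPM) in the rIL7 section, and the same rule found 6 of 2219 spots (0.270%, 0.0993 to 0.588%) with 19 Arg1 UMIs in all. Against control spots with 0, those 6 had ratios of 2.02 (1.79 to 2.28) for the hypoxia list and 1.41 (1.34 to 1.48) for glycolysis. MHC class II was at 0.71 (0.61 to 0.82) and Mmp12 at 5.66 (3.34 to 9.02). Hmox1 (4 UMIs) had 2.32 (0.63 to 5.98) and the core macrophage list 1.03 (0.93 to 1.14), both intervals including 1. Values from 6 spots of 1 section are a description only. With a threshold of 1 or more UMIs, chosen after seeing the data, 246 control spots were compared with 1973 spots with 0, at a median depth of 11068.5 and 9475 UMIs. Of 9407 tested genes 22 were higher (0.234%) and 45 lower (0.478%). Mmp12 had a ratio of 2.11 (1.80 to 2.46) in the control section and of 2.03 (1.89 to 2.19) in the rIL7 section with the same threshold. Hmox1 had 0.91 (0.67 to 1.22) in the control section against 4.16 (3.74 to 4.63). The hypoxia list had 1.19 against 1.58, the glycolysis list 1.12 against 1.27 and MHC class II 0.98 against 0.66. The spots compared also differed in place. In the control section spots with 1 or more lay at a median of 6 steps and spots with 0 at 7, in the rIL7 section at 9 and 5. The part of distance in these ratios was not tested. Of the 15 genes with the highest ratios among those higher in all 4 quadrants, 10 were above 1 in the control section (41.1% of all tested genes were) and 5 had their interval above 1 (4.24% of all). Of the 15 lowest, 12 were below 1 there (58.9% of all tested genes were) and 2 had their interval below 1 (7.46% of all). Each section is 1 tumor, so a difference between them cannot be told apart from a difference between mice or planes of section.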

How the data were processed

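Spatial 3' transcriptomes of 1 control and 1 rIL7 tumor section were deposited by the authors as raw UMI counts per gene and spot, made with Space Ranger 1.1.0 on mm10 (GRCm38) per the labels, with an array position for each spot. Spots with more than 200 genes and under 10% mitochondrial UMIs were kept, which removed 1 of 1951 rIL7 and 2 of 2221 control spots. Of 32285 features, 40 symbols on several rows were summed. UMIs were summed over spots, divided by all UMIs of those spots and given as CPM, and levels of different genes were not set against each other. Ratios carry exact conditional binomial 95% intervals, shares Clopper-Pearson ones; they cover counting error only, since spots are not replicates. Coordinates are from RefSeq (GRCm38.p6), matched by symbol for 9310 of 9425 tested genes. The genes named are a set of chosen genes (among them Arg2, Nos2, Pf4 and Spp1), the 15 highest and 15 lowest ratios past the size rule on the same side in 4 of 4 quadrants, and for each list up to 6 members by ratio and CPM; Slc40a1, Mt1 and further list members and patch genes were named after their values were seen. The Arg1-high spots and the 27 gene lists were chosen with earlier results of these data known, and 2 more lists were added after seeing the data. Alternatives were other thresholds on Arg1, matching for depth or distance, inner spots only, equal weights per spot, TMM scaling (edgeR 4.0.16), other totals, filters and size limits. Python 3.11.15, numpy 2.4.6, scipy 1.17.1, pandas 2.3.3 and matplotlib 3.10.9 were used, and the statistics were tested on simulated data.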

Additional observations from a re-analysis of the deposited data

Results flagged for a closer look

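Of the gene lists, 5 lay on opposite sides of 1, with both intervals excluding 1, in the control and rIL7 sections when spots with 1 or more Arg1 UMIs were set against spots with 0. Each section is 1 tumor and the differences between sections were not tested. Spots with 1 or more lay at a median of 6 steps from the outline in the control section, against 7 for spots with 0. In the rIL7 section these medians were 9 and 5 steps, and the ratios were not matched for distance. The core macrophage list had a ratio of 1.033 in the control section against 0.8959 in rIL7, and the cytotoxic lymphocyte list 1.187 and 0.8227. The neutrophil list had 0.9179 in the control section against 1.345 in rIL7, the chemokine list 0.9517 and 1.018, and the amino acid stress list 0.9272 and 1.06.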

How the results depend on the processing

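All values here are of the Arg1-high spots over spots with 0 Arg1 UMIs, lists on the log2 scale, and the cause of a shift was not tested. Of the values recomputed, 309 for genes and 183 for lists moved by less than their counting interval, 111 and 155 moved by more, and 8 and 9 changed sign from a value whose own interval excluded a ratio of 1. Lists and genes whose first interval included 1 (CT26, pro-inflammatory, keratinocyte, epithelial and red blood cell lists, and Il7r) changed sign as well and are counted among the former. The count of higher genes, 154, was 273 with 5 or more Arg1 UMIs, 102 against all spots below 3, 46 at a ratio of 2 and 253 with no minimum CPM. The count of lower genes, 308, was 190 with depths matched, 177 with distances matched, 187 over inner spots, 603 with 5 or more Arg1 UMIs, 178 against all spots below 3, 205 with TMM, 62 at a ratio of 2, 153 at 20 CPM and 778 with no minimum. The median distance, 12 steps, was 14 with 5 or more Arg1 UMIs and 10 without the largest patch, and the adjacent share, 37.4%, was 30.8% for the spots of highest Arg1 CPM.

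The core macrophage list had no stable direction: from -0.02 it went to 0.090 with depths matched, 0.19 with distances matched, 0.24 over inner spots, 0.25 with 5 or more Arg1 UMIs, 0.076 against all spots below 3, 0.065 with TMM and 0.026 without Lyz2, its gene of most UMIs, but to -0.15 with spots weighted equally and -0.32 without the largest patch. The CT26 markers, at -0.02, ran from -0.19 with 5 or more Arg1 UMIs to 0.084 without the marker of most UMIs, with -0.11 for depths, -0.13 for distances, 0.056 for equal weights, -0.095 for inner spots, 0.069 for TMM and 0.039 without the largest patch.

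The neutrophil list (0.87) had 0.80 with equal weights, 1.39 with 5 or more Arg1 UMIs, 0.99 for the highest Arg1 CPM, 0.77 against all spots below 3, 0.96 with TMM, 0.69 without its gene of most UMIs and 0.37 without the largest patch. The hypoxia list (1.06) had 0.99 with depths and 0.80 with distances matched, 1.095 with equal weights, 0.95 over inner spots, 1.29 with 5 or more Arg1 UMIs, 1.12 for the highest Arg1 CPM, 0.82 against all spots below 3 and 1.15 with TMM. MHC class II (-1.04) had -0.74 with depths and -0.65 with distances matched, -1.11 with equal weights, -0.63 over inner spots, -1.33 with 5 or more Arg1 UMIs, -0.84 against all spots below 3, -0.95 with TMM, -0.715 without the largest patch and -1.15 without its gene of most UMIs. The T cell list (-0.86) had -0.62, -0.54, -0.97, -0.55, -1.16 and -0.64 in the first 6 of these settings, -0.72 without the largest patch and -1.15 without its gene of most UMIs.

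Among values whose first interval excluded 1, signs also turned for the arginine list without Odc1, its gene of most UMIs (-0.015), the chemokine list without the largest patch (-0.028), Spp1 with distances matched (-0.054) and with 5 or more Arg1 UMIs (-0.059), Rpl39l with depths (-0.052) and distances (-0.012) matched, Baiap2l1 with equal weights (0.010), with TMM (0.0044) and without the largest patch (0.039), and Slpi over inner spots (0.56). Il7r, whose interval included 1, went from -0.37 to 0.13 with distances matched, 0.095 over inner spots and 0.14 with 5 or more Arg1 UMIs. Il7 gave no value without the largest patch. The lists without their gene of most UMIs, the bands of distance, the patch split, the 2 added lists and the threshold of 1 UMI were chosen after seeing the data. No paired analysis was possible because each group is 1 section, and for the same reason no replicate could be left out. Genes under about 10 CPM, such as Cd4 or Cxcr2, had too few UMIs for the size rule at this depth.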
